A study of Mus musculus with 4 samples.

Results

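Radial glia are the stem cells of the embryonic cortex. The 10 marker genes described here, Nes, Vim, Fabp7, Slc1a3, Prom1, Msi1, Hopx, Tnc, Ptprz1 and Ednrb, were taken by gene symbol from the 55414 genes of the count files. Each symbol matched exactly 1 Ensembl gene, and 10 of 10 passed the low-count filter. RNA was sequenced from primary neural stem cells of mouse cortex at embryonic day 14.5, with 2 wild type libraries and 2 Mettl4 knockout libraries. Mettl4 encodes an adenosine methyltransferase, and the sources used here do not say which part of the gene the knockout lacks. In both groups the cells were grown as floating spheres and then as an adherent monolayer, with EGF and basic FGF in the medium. The labels give no strain and do not say whether the libraries came from separate embryos. The p-values therefore weigh the genotype difference only against the spread between these libraries, which may in part be technical.

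Radial glia line the ventricle and send a long process to the brain surface. They divide to renew themselves, and they give rise to neurons and later to glia. Their markers include intermediate filament proteins, a fatty acid binding protein, a glutamate transporter, an RNA-binding protein, surface receptors and matrix proteins. Many of these genes stay on in astrocytes and in oligodendrocyte progenitors, so they mark a state shared by several neural cell types. In bulk RNA, fewer cells of a type and less RNA per cell cannot be told apart.

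The wild type libraries held 12812064 and 16883734 counts and the knockout libraries 18150389 and 19310668, so both knockout libraries were deeper. The part of depth in the results below was not tested. Levels are CPM, counts per 1000000 of a library total scaled by TMM, a factor that evens out composition between libraries. Mettl4, the check of the labels, read 63.8 and 66.6 CPM in wild type cells, against 15.6 and 17.6 CPM in knockout cells. Pairs of values are given in the order replicate 1, replicate 2. Fold changes are knockout over wild type on the log2 scale, with 95% intervals, from the edgeR quasi-likelihood test on 19912 genes.

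RefSeq promoter windows were available for 9 of the 10 genes, all but Msi1, and are shown for the 3 members whose knockout values lay below the wild type by more than the gaps between replicates, and for Fabp7, the member with the largest positive value. Each is the 250 bases before the annotated start, 5′ to 3′ on the gene's strand. Capitals mark, on either strand, matches to the CCAAT box that NF-Y binds, to the TATA box and to the core that RBPJ, the DNA-binding partner of Notch, binds.
Vim, GRCm38.p6 chr2:13574061-13574310, plus strand: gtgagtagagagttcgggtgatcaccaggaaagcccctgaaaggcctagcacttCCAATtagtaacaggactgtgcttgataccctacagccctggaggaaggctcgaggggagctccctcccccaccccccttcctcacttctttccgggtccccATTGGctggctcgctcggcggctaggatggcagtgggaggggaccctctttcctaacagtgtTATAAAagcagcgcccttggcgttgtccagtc
Slc1a3, GRCm38.p6 chr15:8710808-8711057, minus strand: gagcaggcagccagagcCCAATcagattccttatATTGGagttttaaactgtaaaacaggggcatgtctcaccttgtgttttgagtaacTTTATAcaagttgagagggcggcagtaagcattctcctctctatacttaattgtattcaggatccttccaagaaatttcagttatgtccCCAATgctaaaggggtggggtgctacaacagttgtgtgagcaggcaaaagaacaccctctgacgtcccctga
Ednrb, GRCm38.p6 chr14:103843702-103843951, minus strand: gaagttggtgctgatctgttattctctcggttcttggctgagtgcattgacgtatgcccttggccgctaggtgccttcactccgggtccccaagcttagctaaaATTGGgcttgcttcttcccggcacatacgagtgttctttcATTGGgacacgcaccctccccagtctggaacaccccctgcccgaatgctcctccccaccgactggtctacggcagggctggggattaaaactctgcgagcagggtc
Fabp7, GRCm38.p6 chr10:57784673-57784922, plus strand: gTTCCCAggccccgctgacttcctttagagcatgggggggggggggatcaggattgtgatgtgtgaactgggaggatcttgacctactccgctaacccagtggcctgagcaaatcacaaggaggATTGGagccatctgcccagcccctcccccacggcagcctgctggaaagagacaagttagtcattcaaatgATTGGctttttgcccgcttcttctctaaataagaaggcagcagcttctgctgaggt

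The CCAAT letters stood in 6 of the 9 members' promoters, counting either strand and any start. By window they were in 7 of 12 member windows, and in 33.8% of all 32851 RefSeq windows of the same length. The letters of the TATA box, searched as TATAAA, were in 3 of the 9 (Vim, Tnc and Slc1a3), and in 4 of 12 member windows (12.4% of all windows). The overlapping windows of Tnc hold the same TATA letters, and the Slc1a3 match lay on the opposite strand. The RBPJ core, searched as TGGGAA, was in 3 of the 9, and in 4 of 12 member windows (21.6% of all windows). The Vim TATA letters began 32 bases before the start. The SOX letters ACAAAG were in 0 of the 9, and in 0 of 12 member windows (16.5% of all windows). The octamer ATGCAAAT, which POU factors bind, was in 1 of the 9, Tnc. By window it was in 2 of 12 member windows, both of Tnc and overlapping, and in 1.6% of all windows. These are letter matches and say nothing about binding.

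In the wild type cultures the 10 markers differed widely in level per length. CPM per kb divides CPM by the length of all annotated exons of a gene. Fabp7 was highest, at 1501 ± 273 CPM per kb (SD, n = 2, as for the levels that follow), and Vim followed at 406 ± 6.94. The middle of the order held Ednrb at 184 ± 22.7 CPM per kb, Slc1a3 at 135 ± 8.96 and Ptprz1 at 120 ± 12.7. Nes, at 48.9 ± 12.3 CPM per kb, and Tnc, at 47.5 ± 11.3, came next. Hopx read 13.3 ± 7.15 CPM per kb, Msi1 5.52 ± 1.27 and Prom1 1.03 ± 0.0288.

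Of the neighbours in this order, Slc1a3 and Ptprz1 overlapped between the wild type libraries, as did Nes and Tnc, and the other neighbours did not overlap. Both wild type libraries gave the same order. In both knockout libraries Ptprz1 stood above Slc1a3, and in knockout replicate 1 Tnc stood above Nes. Among the protein-coding genes tested, Fabp7, Vim, Ednrb, Slc1a3 and Ptprz1 lay between the 97.5 and 99.9 percentile of CPM per kb in the 4 libraries. Prom1 was between the 16.0 and 18.3 percentile, so a gene used to sort neural stem cells by its surface protein was among the less abundant RNAs here. The SDs cover the spread between libraries only, not the choice of gene length. When each gene was divided by the length of the transcript with its longest coding sequence, Vim stood at 878 CPM per kb, Msi1 at 10.2 and Prom1 at 1.87, each over 1.5 times its value with merged exons. Slc1a3 (277 CPM per kb) and Ptprz1 (212) also passed that factor and came before Ednrb (191). With that length Tnc (52.0 CPM per kb) and Nes (51.2) also changed places, and the other places were the same.

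**Figure D1:**
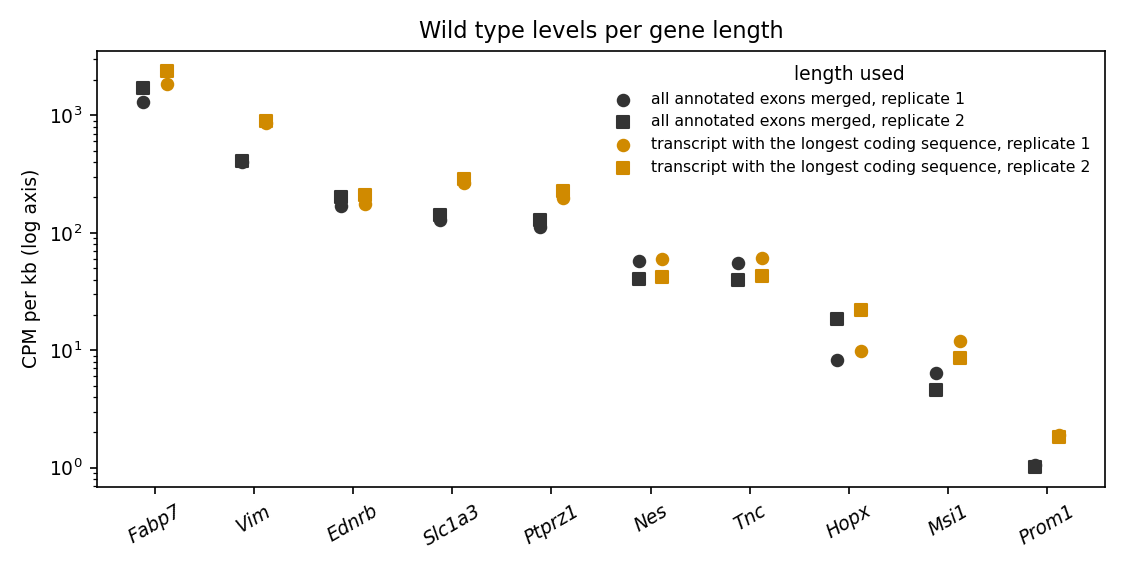
Wild type level of each marker per kb of gene length (vertical axis, log scale, CPM per kb) in replicates 1 (circles) and 2 (squares), with 2 ways of measuring length. Fabp7 lies at 1308 and 1695 CPM per kb and Prom1 at 1.05 and 1.01 with merged exons, and the choice of length reorders genes only within the groups Ednrb, Slc1a3 and Ptprz1, and Nes and Tnc.

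In the knockout against the wild type, 0 of the 10 markers were called past an adjusted p of 0.05 (edgeR quasi-likelihood test, Benjamini-Hochberg adjustment over all genes), against 0.00502% of all genes tested, which is Mettl4 alone. At an unadjusted p under 0.05 there were 0 of 10 markers in the edgeR fit, against 2.77% of all genes, and 0 of 10 with DESeq2, against 1.46%. With the replicate number as a block in the edgeR fit there were 4 of 10 (Tnc, Ednrb, Slc1a3 and Fabp7), against 7.83% of all genes. After adjustment there were 0 of 10, and no label marks the numbers as pairs. The markers split into 5 with a positive and 5 with a negative log2 fold change, with a median of -0.01. Over all genes 49.7% were positive and the median was -0.0013. The values of the 10 markers ran from -0.33 for Ednrb to 0.36 for Fabp7, and the median size without sign was 0.24, against 0.15 over all genes. The standard errors ran from 0.19 to 0.36, and each of the 10 values was smaller than 2 standard errors. None of these differences passed the test with 2 libraries in each group, and what size could be detected was not tested. The adjusted p was 1.00 for each of the 10.

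**Figure D2:**
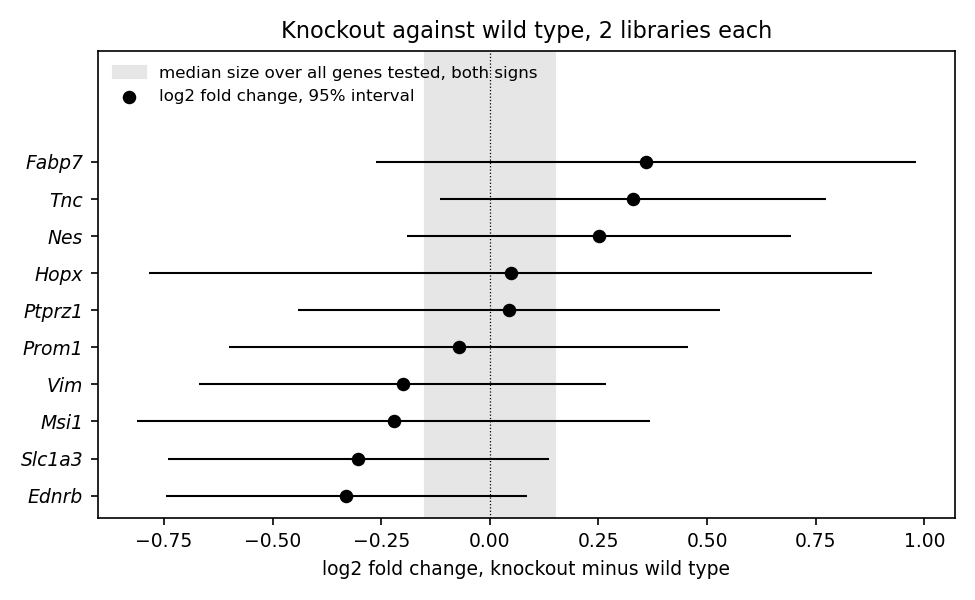
Log2 fold change of each marker, knockout minus wild type (horizontal axis), with its 95% interval from the edgeR fit on 2 libraries in each group. The grey band spans the median size over all genes tested, 0.15 on either side of 0, and each of the 10 intervals includes 0.

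The 2 intermediate filament genes differed in sign. Nes (ENSMUSG00000004891, chromosome 3) encodes nestin, the filament protein most used to mark neural stem cells. It read 369 and 258 CPM in wild type cells, against 347 and 399 CPM in knockout cells. The groups overlapped, because knockout replicate 1 lay below wild type replicate 1. In the fit Nes had a log2 fold change of 0.25 (SE 0.20), a knockout level of 119% of the wild type with an interval from 87.7% to 162%. That value was 0.53 without wild type replicate 1 and 0.03 without wild type replicate 2. Vim (ENSMUSG00000026728, chromosome 2) encodes vimentin, with which nestin assembles. It read 1903 and 1949 CPM in wild type cells, against 1689 and 1662 CPM in knockout cells. Its gap between replicates was the smallest of the 10 in both genotypes, and both knockout libraries lay below both wild type libraries. The log2 fold change was -0.20 (SE 0.21), a level of 87.0% of the wild type (62.9% to 120%), and it did not pass the test.

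Fabp7 and Slc1a3, the genes most used to tell radial glia by their metabolism and transport, also had opposite signs. Fabp7 (ENSMUSG00000019874, chromosome 10) encodes brain lipid-binding protein, a carrier of fatty acids in radial glia. Its level was 1635 and 2118 CPM in wild type cells, against 1830 and 2985 CPM in knockout cells. The highest value was that of knockout replicate 2, while knockout replicate 1 lay between the wild type libraries. The log2 fold change was 0.36 (SE 0.28), with an interval from -0.26 to 0.98. Without knockout replicate 2 it was -0.04, and in the other 3 fits that left out a library it ran from 0.18 to 0.67. Slc1a3 (ENSMUSG00000005360, chromosome 15) encodes the glutamate transporter GLAST. It read 1098 and 1206 CPM in wild type cells, against 995 and 873 CPM in knockout cells. The groups did not overlap. The log2 fold change was -0.30 (SE 0.20), a knockout level of 81.1% of the wild type (59.8% to 110%).

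**Figure D3:**
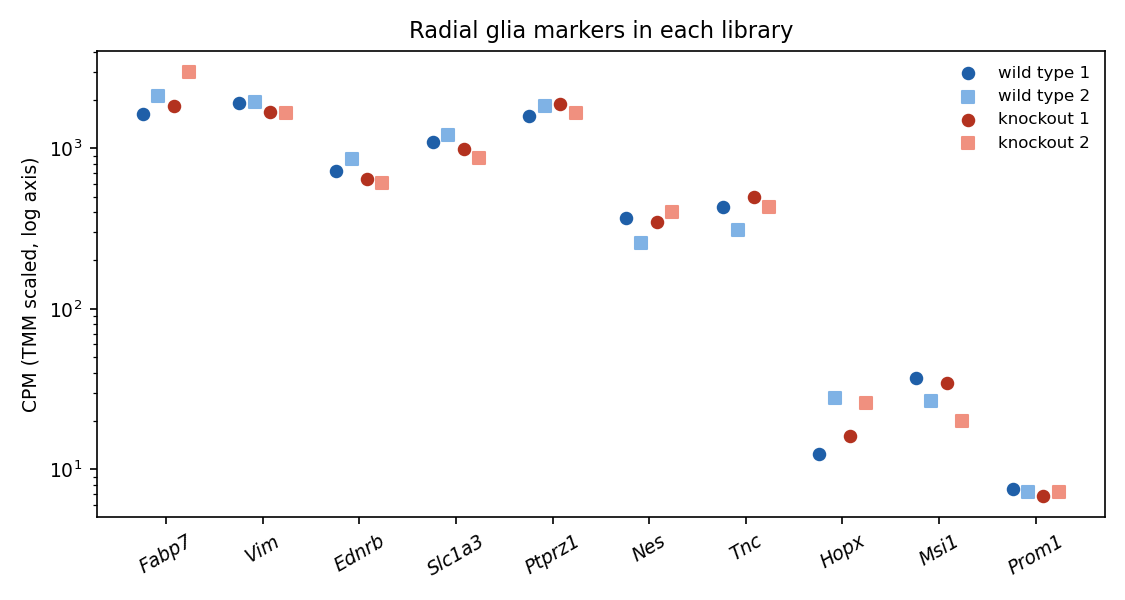
CPM of each marker (log axis) in the 4 libraries, ordered by wild type level per kb. Hopx, Msi1, Fabp7 and Ptprz1 differ more between the replicates of each genotype than between genotype means on the log2 scale. Vim lies at 1903 and 1949 CPM in the wild type and 1689 and 1662 CPM in the knockout.

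The surface genes Ednrb and Prom1 had values below 0. Ednrb (ENSMUSG00000022122, chromosome 14) encodes the endothelin B receptor, through which endothelins act on glia and progenitors. It read 716 and 853 CPM in wild type cells, against 644 and 604 CPM in knockout cells. Both knockout libraries lay below both wild type libraries. The log2 fold change was -0.33 (SE 0.19), with an interval from -0.75 to 0.09. Its unadjusted edgeR p in the fit without a block was 0.11, the smallest of the 10. Prom1 (ENSMUSG00000029086, chromosome 5) encodes prominin-1, or CD133, a protein of membrane protrusions. It read 7.55 and 7.26 CPM in wild type cells, against 6.86 and 7.22 CPM in knockout cells, from 100 to 132 counts in each library. The Poisson counting interval of wild type replicate 1 alone, 6.14 to 9.18 CPM, covered the other 3 libraries. Its log2 fold change was -0.07 (SE 0.24).

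Msi1 (ENSMUSG00000054256, chromosome 5) encodes Musashi-1, which binds RNA and represses the translation of Numb, an inhibitor of Notch. It read 37.2 and 26.8 CPM in wild type cells, against 34.7 and 20.1 CPM in knockout cells. The groups overlapped, and the gap between the knockout libraries, -0.79 on the log2 scale, was larger than the log2 fold change of -0.22 (SE 0.27). That value was 0.12 without knockout replicate 2 and 0.03 without wild type replicate 1, but -0.67 without knockout replicate 1 and -0.43 without wild type replicate 2. Numb itself read 20.5 and 17.0 CPM in wild type cells, against 18.8 and 18.6 CPM in knockout cells.

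Hopx, Tnc and Ptprz1 are known as markers of outer radial glia, the progenitors that lie away from the ventricle and are numerous in primates. Hopx (ENSMUSG00000059325, chromosome 5) encodes a small homeodomain protein that does not bind DNA. It read 12.5 and 27.9 CPM in wild type cells, against 16.2 and 25.8 CPM in knockout cells. The wild type libraries were further apart than counting error allows, with Poisson intervals of 10.7 to 14.6 and 25.4 to 30.5 CPM. The log2 difference between them was 1.15, the largest between replicates among the 10, and the log2 fold change between genotypes was 0.05 (SE 0.36). Without wild type replicate 1 the fold change was -0.41, and without wild type replicate 2 it was 0.76. Hopx shares exon sequence with Hopxos on the opposite strand, which had 26 to 92 counts. Without knowing how strand was counted, reads of the 2 genes cannot be told apart.

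Tnc (ENSMUSG00000028364, chromosome 4) encodes tenascin-C, a matrix glycoprotein around neural stem cells. It read 432 and 307 CPM in wild type cells, against 496 and 432 CPM in knockout cells. Knockout replicate 2 lay above wild type replicate 1 by 0.003 on the log2 scale, so the groups barely missed overlapping. The log2 fold change was 0.33 (SE 0.20), a knockout level of 126% of the wild type (92.4% to 171%). Without wild type replicate 1 it was 0.59, and without wild type replicate 2 it was 0.12. An RNA on the opposite strand, 8030451A03Rik, had 124 to 304 counts, few beside the 5042 to 9403 counts of Tnc. Ptprz1 (ENSMUSG00000068748, chromosome 6) encodes a receptor-type tyrosine phosphatase that tenascin-C and pleiotrophin bind. Its level was 1585 and 1841 CPM in wild type cells, against 1877 and 1656 CPM in knockout cells. The groups overlapped, with a log2 fold change of 0.04 (SE 0.22).

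Set side by side, the libraries of the 2 genotypes did not overlap for 5 of the 10 markers, against 27.4% of all genes tested. Vim, Slc1a3, Ednrb and Prom1 were lower (4 of 10, against 14.9% of all genes), and Tnc was higher (1 of 10, against 12.5%). With library totals as the scaling, Prom1 and Tnc overlapped too, which left 3 of 10, against 26.6% of all genes with that scaling. For Vim, Slc1a3 and Ednrb the gap between genotype means on the log2 scale was also larger than the gap between replicates in either genotype (3 of 10, against 17.2% of all genes). Against the wild type mean, knockout replicates 1 and 2 stood at -0.19 and -0.21 for Vim on the log2 scale, at -0.21 and -0.40 for Slc1a3, and at -0.29 and -0.38 for Ednrb.

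**Figure D4:**
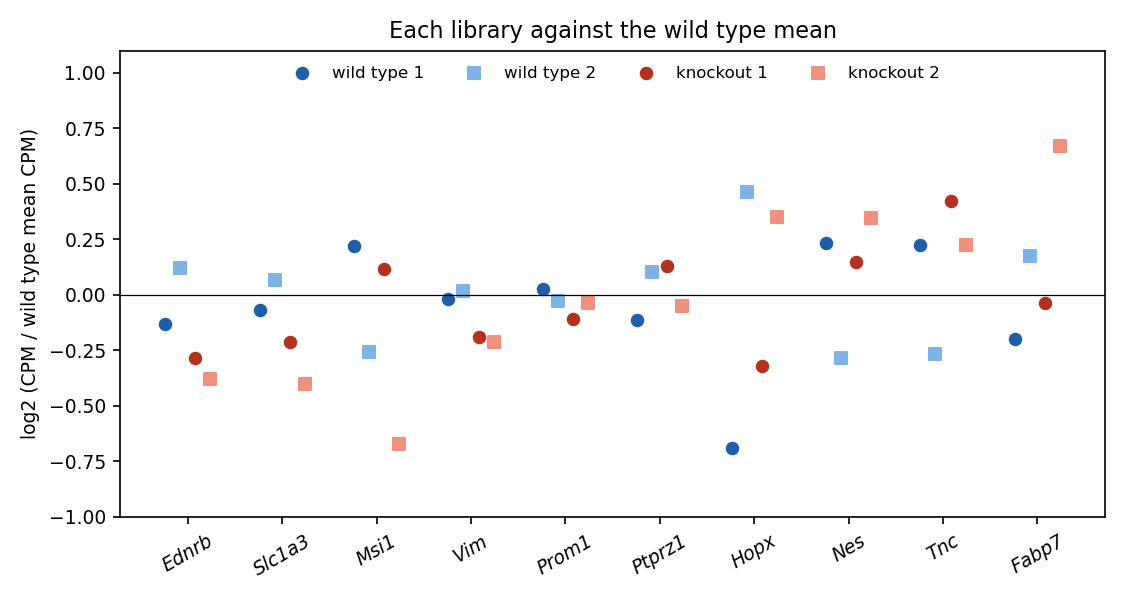
Log2 ratio of each library's CPM to the wild type mean CPM (vertical axis), with markers ordered by fold change. The knockout libraries lie together below both wild type libraries for Ednrb, Slc1a3 and Vim, while for Hopx, Msi1, Nes, Ptprz1 and Fabp7 the genotypes overlap.

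Other genes of the radial glia programme were read from a list of 25, of which 24 passed the filter. In this list 0 were called higher and 0 lower by edgeR, with 13 positive and 11 negative values and a median of 0.03. At an unadjusted p under 0.05 there were 3 of 24, against 2.77% of all genes. The transcription factor gene Sox9, which also marks astrocytes and stands in both lists, read 63.2 and 57.4 CPM in wild type cells, against 84.2 and 81.3 CPM in knockout cells. Gli3, which acts in Hedgehog signalling, read 22.0 and 20.2 CPM in wild type cells, against 25.6 and 32.3 CPM in knockout cells. Pla2g7, a phospholipase enriched in radial glia and astrocytes, read 35.8 and 47.9 CPM in wild type cells, against 34.1 and 21.9 CPM in knockout cells. Sox2, which keeps neural progenitors undifferentiated, read 174 and 196 CPM in wild type cells, against 196 and 213 CPM in knockout cells. Pax6, from the same list, read 41.8 and 45.2 CPM in wild type cells, against 38.9 and 41.4 CPM in knockout cells. Fam107a, another gene of human outer radial glia, had 0 to 7 counts in each library and was not tested.

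Binding partners of the receptors were measured unevenly. Ptn, which encodes the Ptprz1 ligand pleiotrophin, read 641 and 804 CPM in wild type cells, against 645 and 941 CPM in knockout cells. Mdk, which encodes midkine, a related ligand, had only 7 to 15 counts in each library. Cntn1, which encodes a contactin that binds Ptprz1, read 89.1 and 174 CPM in wild type cells, against 131 and 131 CPM in knockout cells. The endothelin genes were at or near 0. Edn1 had 0 to 2 counts, Edn2 0 to 1, and Edn3 had 0 in each of the 4 libraries, which allows up to 0.155 to 0.234 counts per 1000000 of the library total (3 counts, for counting error only). Ednrb RNA was thus abundant beside at most 2 counts of any endothelin RNA in a library. Ece1, which encodes an enzyme that activates endothelins, read 19.7 and 15.7 CPM in wild type cells, against 18.0 and 12.8 CPM in knockout cells. Itgav, an integrin subunit that can bind tenascin-C, measured 228 ± 30.2 CPM in wild type cells against 207 ± 19.4 CPM in knockout cells (SD, n = 2 each). Of 12 tested partners, 0 were called by edgeR in either direction and 0 had an unadjusted p under 0.05, against 2.77% of all genes.

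Markers of other cell types were read beside the 10 genes, since Slc1a3, Fabp7, Ptprz1 and Tnc also mark glia. The summed level of the 10 markers was 7796 and 8595 CPM in wild type cells, against 7937 and 8665 CPM in knockout cells. Oligodendrocyte lineage markers summed to 1476 and 1349 CPM in wild type cells, against 1531 and 1491 CPM in knockout cells. Most of this was Olig1 and Olig2, while the mature marker Mog had 3 to 5 counts. All 9 tested markers of this lineage had positive values, against 49.7% of all genes, with a median of 0.38. By edgeR 0 were called, and 3 of 9 had an unadjusted p under 0.05 (Sox10, Gpr17 and Cnp), against 2.77% of all genes. Sox10 had only 7 and 22 counts in the wild type libraries, against 61 and 46 in the knockout libraries. Astrocyte markers summed to 893 and 925 CPM in wild type cells, against 1021 and 812 CPM in knockout cells. Of these, 7 of 10 had negative values, with a median of -0.22, and 0 were called by edgeR. At an unadjusted edgeR p under 0.05 there were 2 of 10, Aldh1l1 and Sox9, against 2.77% of all genes. In that list Mlc1 stood at -0.34 and Gja1 at -0.24, while the 3 positive values were 0.73 for Aldh1l1, 0.46 for Sox9 and 0.13 for Aqp4. Gfap, the filament of mature astrocytes, read 3.85 and 4.88 CPM in wild type cells, against 3.54 and 1.26 CPM in knockout cells. The part of glial content in the marker values was not tested.

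Neuron markers summed to 1086 and 1368 CPM in wild type cells, against 1192 and 1428 CPM in knockout cells, of which Map2 alone gave 1000 and 1266, and 1110 and 1335 CPM. Gap43 followed, at 61.1 and 72.8 CPM in wild type cells, against 52.1 and 67.2 CPM in knockout cells. Tubb3 was lower, at 5.21 and 4.88 CPM in wild type cells, against 5.86 and 6.46 CPM in knockout cells. Stmn2 had 0 to 5 counts in each library. Intermediate progenitor markers summed to 133 and 131 CPM in wild type cells, against 138 and 153 CPM in knockout cells. Of this, Btg2 gave 73.9 and 66.5 CPM in wild type cells, and Elavl2 gave 47.2 and 54.0 CPM. Eomes, which defines intermediate progenitors, had 3 to 6 counts, and Neurog1 had 0 in each library. Microglia markers summed to between 6.84 and 8.02 CPM over the 4 libraries, with Tmem119, Itgam and Fcrls at 0. Endothelial markers summed to 5.81 and 6.46 CPM in wild type cells, against 5.12 and 5.25 CPM in knockout cells. Ependymal markers summed to between 12.2 and 18.1 CPM. Mesenchymal, meningeal and mural markers summed to 33.4 and 28.4 CPM in wild type cells, against 22.2 and 20.1 CPM in knockout cells. Foxc1 alone gave 22.7 and 20.9, and 17.5 and 16.0 CPM. The filter removed 7 of the 10, among them Col1a1 with 0 to 9 counts and Pdgfrb with 0 to 3. The 3 tested genes of this list were negative, against 49.7% positive over all genes, and 0 were called by edgeR. At an unadjusted edgeR p under 0.05 there were 2 of 3, Acta2 and Tagln, against 2.77% of all genes. Tagln had only 13 to 28 counts in each library. Vim RNA is also made by mesenchymal, meningeal and mural cells, and the part of these cells in its lower knockout values was not tested. Over all lists, DESeq2 called 0 and limma-voom 0 of the tested genes. The labelled cell type thus had abundant Nes, Vim, Fabp7 and Sox2 RNA, with Prom1 RNA low, and with Olig1 and Olig2 RNA abundant as well. Not every marker was abundant. Among protein-coding genes tested, Hopx lay at the 62.4 and 83.0 percentile of CPM per kb in wild type cells. Msi1 lay at the 54.6 and 45.8 percentile.

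**Figure D5:**
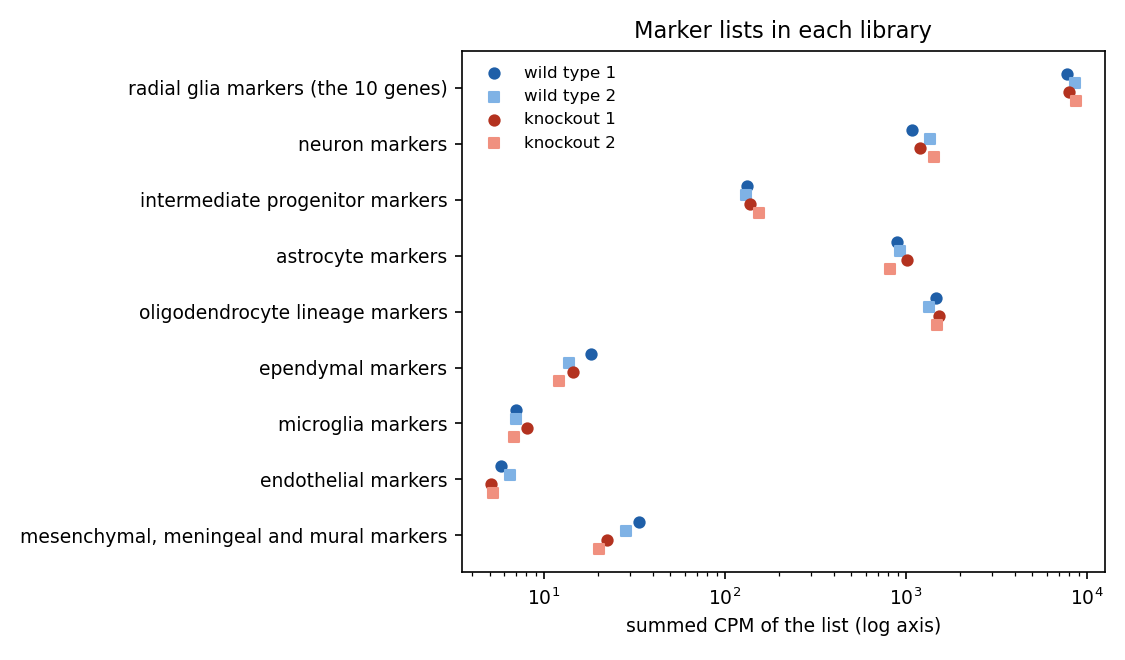
Summed CPM (log axis) of each marker list in the 4 libraries. The 10 radial glia markers lie between 7796 and 8665 CPM. The microglia, endothelial, ependymal and mesenchymal lists lie between 5.12 and 33.4 CPM. The endothelial and mesenchymal lists are lower in both knockout libraries than in both wild type libraries.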

How the data were processed

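The authors deposited raw read counts per gene, 1 file per library. The submitters' processing notes name STAR 2.7.10, featureCounts and the build GRCm39. The sources used here do not say how strand and multi-mapping reads were treated. Symbols (52081 of 55414 identifiers) came from a separate list of gene names. Chromosomes and exon lengths came from GENCODE M21, a GRCm38 annotation, so lengths are approximate. Promoter sequences came from RefSeq (GRCm38.p6).

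Genes were filtered with filterByExpr (minimum count 10), scaled by TMM and tested with edgeR 4.0.16 (R 4.3.3; glmQLFit with robust=TRUE), with Benjamini-Hochberg adjustment over 19912 genes. Standard errors were taken as the log2 fold change divided by the square root of F. The test was checked on simulated counts. Libraries of a group differed by more than counting error (chi-square per degree of freedom 18.7 in the wild type, 29.5 in the knockout). Counts carry no molecular identifiers, so count intervals cover counting error only.

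The members and lists were chosen with earlier results of these data known, so no test was made over a list. Named are the 10 members, Mettl4 and, from the other lists, at most 3 genes with the smallest p and 3 with the highest wild type level. Defining markers at or near 0, Sox2, Pax6, Aqp4 and a few other genes that bear on a member were named after their values were seen. Alternatives were other scalings and filters, DESeq2 1.42.0, limma-voom (limma 3.58.1), robust=FALSE, each library left out, the replicate number as a block and, chosen after seeing the data, another gene length. The listed gene Ptprg was not analysed here.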

Additional observations from a re-analysis of the deposited data

How the results depend on the processing

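No marker was called under any of the 13 alternatives run. The sign of each marker was the same in 90 of 90 values with all 4 libraries, and 7 of 40 values with a library left out had the opposite sign. With a library left out, log2 fold changes ran from -0.67 to 0.12 for Msi1, from -0.41 to 0.76 for Hopx, from -0.059 to 0.17 for Ptprz1 and from -0.036 to 0.67 for Fabp7. The median of the markers then ran from -0.072 to -0.030. Over all genes, the number called was 41 without a low-count filter, where more genes were tested, 6 with DESeq2, and between 1 and 47 with a library left out. Dropping wild type replicate 1 gave 31 and dropping wild type replicate 2 gave 17, while dropping knockout replicate 1 gave 47 and dropping knockout replicate 2 gave 1. In those fits the lone library of a group is assumed to vary like the others, and the cause of the changed counts was not tested. With the replicate number as a block, 9 genes were called and 0 of the 10 markers. Over 10237 genes of at least 10 CPM, the gaps between replicates 1 and 2 of the wild type and of the knockout correlated at 0.569, but no label marks the numbers as pairs. Counts of the markers ran from 100 for Prom1 to 54536 for Fabp7 in a library, and what set the precision of each marker was not tested.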

Other observations

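Relatives of the markers were read from a list of 17 genes, of which 11 were tested. The Musashi gene Msi2, which stands in the list of other radial glia genes instead, read 327 and 332 CPM in wild type cells. In knockout cells it read 360 and 410 CPM. Per kb of merged exons Msi2 stood at 31.7 CPM in the wild type, against 5.52 CPM for Msi1. Per kb of the transcript with the longest coding sequence the values were 178 CPM and 10.2 CPM. Among fatty acid binding proteins, Fabp5 read 403 and 656 CPM in wild type cells, against 496 and 677 CPM in knockout cells, and Fabp3 measured 1.09 ± 0.593 CPM in the wild type (SD, n = 2). Among glutamate transporters, Slc1a2, which takes over from Slc1a3 in mature astrocytes, measured 127 ± 7.11 CPM in wild type cells against 110 ± 35.7 CPM in knockout cells (SD, n = 2 each). Per kb of merged exons, the other endothelin receptor gene Ednra stood at 0.775 CPM in the wild type, against 184 CPM for Ednrb. The tenascin gene Tnr stood at 4.59 CPM per kb, against 47.5 CPM per kb for Tnc. The tenascin genes Tnn and Tnxb had 0 to 2 counts, and Prom2 had 5 to 12. Of the 11 tested, 9 had positive and 2 negative log2 fold changes, with a median of 0.15, against 49.7% positive over all genes. By edgeR 0 were called and 0 had an unadjusted p under 0.05, against 2.77% of all genes.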
